A study of Mus musculus with 18 samples.

Results

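The immunoglobulin constant regions are the genes that encode the class-defining part of an antibody chain. The 10 of them described here are the heavy chain regions Ighm, Ighd, Ighg3, Ighg1, Ighg2b, Ighg2c and Igha, the kappa light chain region Igkc and the lambda light chain regions Iglc1 and Iglc2. They were taken by symbol from the 50584 rows of a table of read counts from the choroid plexus, the tissue of the brain ventricles that secretes cerebrospinal fluid, and all 10 passed the filter on low counts. The tissue came from MRL/lpr mice at 12 weeks (6 libraries) and 16 weeks (6 libraries) and from MRL/+ mice at 12 weeks (3 libraries) and 16 weeks (3 libraries). Both strains share the autoimmune-prone MRL background. MRL/lpr mice carry in addition the lpr mutation of Fas, an insertion in an intron that disrupts normal Fas transcripts and is present in every cell of the body, and develop a lupus-like disease with high serum autoantibody, while MRL/+ mice have intact Fas. Whether each library came from a separate animal is not in the labels, so a p-value here speaks of the variation among libraries, which may be partly technical. The comparisons ask which antibody classes were transcribed in the tissue, whether their mixture differed between the strains at each age, and whether it changed with age in MRL/lpr mice.

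An antibody pairs 2 identical heavy chains with 2 identical light chains. A B cell first makes the mu and delta heavy chains of IgM and IgD from one long transcript. After activation, class switch recombination deletes the DNA between Ighm and a downstream constant region, so that the same antigen-binding part is joined to a gamma, epsilon or alpha heavy chain and the cell makes IgG, IgE or IgA. Each cell uses either kappa or lambda light chains, and kappa predominates in mice. A plasma cell, the end stage of this path, devotes much of its RNA to the constant regions of its one class, so a count of constant region reads weighs a plasma cell far above a resting B cell.

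The heavy chain members lie in a row on the minus strand of chromosome 12 in mouse build GRCm38, in the order of transcription Ighm (113418558 to 113422730), Ighd (113406604 to 113416324), Ighg3 (113359575 to 113361232), Ighg1 (113325240 to 113330523), Ighg2b (113302965 to 113307933), Ighg2c (113285325 to 113288932) and Igha (113254830 to 113260236). Igkc is a single exon on the plus strand of chromosome 6 (70726435 to 70726966). Iglc1 (19061618 to 19062071) and Iglc2 (19198396 to 19200351) lie on the minus strand of chromosome 16. The first 60 bases of the first constant exon, read from the GRCm38 genome on the minus strand and written from 5′ to 3′, show how far a read can tell the classes apart. Capitals mark bases that lie in no 15-base word shared with another heavy chain member, where only words wholly inside the printed bases were compared.
Ighm, chr12:113422671-113422730: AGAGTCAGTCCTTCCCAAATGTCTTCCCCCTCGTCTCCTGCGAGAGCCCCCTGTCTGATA
Igha, chr12:113260177-113260236: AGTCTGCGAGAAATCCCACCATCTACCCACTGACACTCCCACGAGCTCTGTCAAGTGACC
Ighg3, chr12:113361173-113361232: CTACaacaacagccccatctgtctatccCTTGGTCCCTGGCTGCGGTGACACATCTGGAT
Ighg1, chr12:113330464-113330523: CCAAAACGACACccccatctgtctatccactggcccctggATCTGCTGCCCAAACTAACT
Ighg2b, chr12:113307874-113307933: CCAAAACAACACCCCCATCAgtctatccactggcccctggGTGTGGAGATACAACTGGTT
Ighg2c, chr12:113288873-113288932: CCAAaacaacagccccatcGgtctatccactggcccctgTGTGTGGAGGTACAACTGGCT
The Ighm and Igha starts share no such word with another class, whereas each gamma start shares such words with another gamma gene. In Ighg3 the lower case ends earlier than in Ighg1, Ighg2b and Ighg2c, whose run goes on where Ighg3 is in capitals. Over the 291 bases of this exon the gamma genes were 78.4% to 88.3% identical to each other, Ighg3 being the most distant. Over the exons that the table lists, 5.49% of the 50-base words of Ighg2c and 3.04% of those of Ighg2b also occurred in another member, against 0.393% for Ighg1 and none for Ighm, Ighd, Ighg3 and Igha, and no 100-base word was shared by any. No source used here gives the read length or the treatment of reads with several matching places, so the split between Ighg2b and Ighg2c carries this small uncertainty. The reference genome comes from C57BL/6J mice, which carry Ighg2c at the place where some other strains carry the allele Ighg2a. The effect of MRL alleles on alignment was not tested.

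In the 18 libraries the total count ran from 11164284 to 14602253. The summed level of 8 markers of its epithelium, Ttr, Enpp2 and Kl among them, was 156930 to 309170 CPM (counts scaled to a common library size, adjusted by the trimmed mean of log ratios) in the 12 MRL/lpr libraries and 186270 to 313810 CPM in the 6 MRL/+ libraries, and none of the 8 passed the test between the strains in edgeR. At 16 weeks, however, all 8 had a lower fitted level in MRL/lpr (log2 fold change -0.71 to -0.13, median -0.39), 5 of them at an unadjusted p under 0.05, and at 12 weeks 1 of the 8 had such a p (median -0.20). The part of this in the levels of the constant regions was not tested. Fas averaged 2.84 ± 1.58 CPM (SD, n = 6) in MRL/lpr and 1.33 ± 0.236 CPM (SD, n = 3) in MRL/+ libraries at 12 weeks. Its adjusted p was 0.18, and gene-level counts over all exons do not read the lpr insertion, so they do not check the labels. Transcripts of other tissues were high in several libraries. The summed pineal gland markers were at 88.7 and 70.2 CPM in MRL/lpr replicates 1 and 4 at 12 weeks, against at most 21.9 CPM in any other library, and the muscle markers were at 647 CPM in MRL/+ replicate 1 at 16 weeks, against at most 5.25 CPM elsewhere. The cerebellum markers were at 201 CPM in MRL/lpr replicate 2 at 12 weeks, at 211, 144 and 114 CPM in MRL/lpr replicates 1, 2 and 3 at 16 weeks and at 394 CPM in MRL/+ replicate 1 at 12 weeks, against at most 70.4 CPM in the others. The pituitary markers ran from 18.2 to 88.1 CPM in MRL/lpr and from 21.5 to 62.9 CPM in MRL/+ libraries. An earlier analysis of these data named 4 libraries for such transcripts (MRL/lpr replicates 1 and 4 and MRL/+ replicate 1 at 12 weeks, MRL/+ replicate 1 at 16 weeks), and results that depend on them are given with and without them. The 4 MRL/lpr libraries with high cerebellum markers are not among those, and the part of such transcripts in the results was not tested beyond leaving out each library in turn. Summed red blood cell markers were low, from 3.07 to 16.6 CPM in MRL/lpr and 3.53 to 15.9 CPM in MRL/+ libraries.

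All 10 constant regions were higher in every MRL/lpr library than in any MRL/+ library of the same age. At 12 weeks 9 of the 10 passed the test (edgeR quasi-likelihood fit over 16598 genes, Benjamini-Hochberg adjusted p under 0.05), where 6.36% of all genes tested were called, 5.01% higher and 1.34% lower. At 16 weeks all 10 passed, where 11.1% of all genes were called, 8.49% higher and 2.64% lower. None of the 10 was called lower. Ighd, Iglc1 and Iglc2, among others, had at most 4, 2 and 3 counts in an MRL/+ library. They passed the filter on low counts through the MRL/lpr libraries, so a lower call was not open to them. The median log2 fold change of the 10 was 8.22 at 12 weeks and 9.04 at 16 weeks, beside -0.01 and 0.03 for all genes tested. The share of all genes with every MRL/lpr library above every MRL/+ library was 8.59% at 12 weeks and 9.91% at 16 weeks. The 10 constant regions together took 0.173% to 0.766% of all counts in MRL/lpr libraries at 12 weeks and 0.0354% to 1.57% at 16 weeks, against 0.000812% to 0.00206% and 0.00113% to 0.00160% in MRL/+ libraries. In this bulk tissue, fewer cells that make antibody and less RNA per cell cannot be told apart. Without the 4 libraries with transcripts of other tissues, the fold changes stayed in the same direction, but at 12 weeks 1 of the 10 passed the test, with 4 MRL/lpr and 2 MRL/+ libraries left, and at 16 weeks 8 passed, with 6 and 2.

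**Figure D1:**
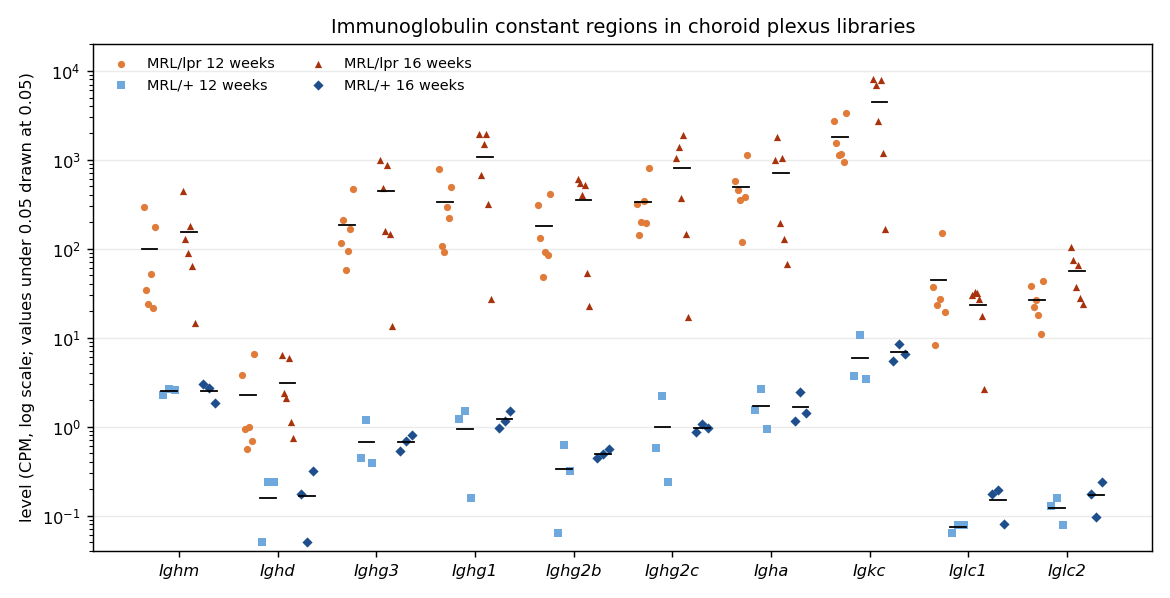
Level of each constant region per library, in CPM on a log scale, with values under 0.05 drawn at 0.05. Each point is a library, horizontal lines are group means, and for every gene the MRL/lpr points lie above the MRL/+ points of the same age.

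Ighm encodes the mu chain of IgM, the class of B cells that have not switched. At 12 weeks it was at 21.5 CPM in the lowest, 43.4 CPM at the median and 292 CPM in the highest MRL/lpr library, against 2.29, 2.66 and 2.59 CPM in the 3 MRL/+ libraries. The MRL/+ libraries lay close together, while the MRL/lpr libraries spanned 13.6-fold. The group mean was 39.8 times higher in MRL/lpr, with a log2 fold change of 5.31 ± 1.19 (SE) and an adjusted p of 0.0125 in edgeR's quasi-likelihood test. That call was lost when any one of the MRL/+ libraries at 12 weeks was left out, with adjusted p of 0.0795, 0.0702 and 0.0720 in edgeR without replicates 1, 2 and 3. At 16 weeks Ighm was at 14.5 CPM in the lowest, 110 CPM at the median and 442 CPM in the highest MRL/lpr library, against 2.98, 2.73 and 1.83 CPM in MRL/+ libraries. The mean was 60.8 times higher in MRL/lpr, with a log2 fold change of 5.93 ± 1.23 and an adjusted p of 0.00567 in edgeR, which became 0.0508 without the 4 libraries named above.

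Ighd encodes the delta chain, which naive B cells carry on their surface beside IgM and which is rarely secreted. It was the least abundant member per kb of exon in every MRL/lpr library. Its count was 7 to 96 in MRL/lpr libraries at 12 weeks, against 0, 3 and 3 in MRL/+ libraries, and 9 to 100 at 16 weeks, against 2, 0 and 4. The counts of the strains did not overlap at either age. The mean CPM was 14.4 times higher in MRL/lpr at 12 weeks, which did not pass the test (adjusted p = 0.0568, edgeR), although DESeq2 called it (adjusted p = 0.00302). It was 18.9 times higher at 16 weeks, with an adjusted p of 0.0307 in edgeR. The call at 16 weeks was lost without MRL/lpr replicate 1 (adjusted p = 0.0571), without MRL/lpr replicate 4 (0.0536) and without MRL/+ replicates 1, 2 and 3 (0.119, 0.114 and 0.0837), each in edgeR.

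The 4 gamma genes encode the IgG subclasses. In mice, IgG2c and IgG2b engage complement and activating Fc receptors strongly, IgG3 is prone to self-association and is made in the absence of T cell help more than the others, and IgG1 is the subclass favoured by interleukin 4. All 4 passed the test at both ages in edgeR, with mean levels 276 to 534 times higher in MRL/lpr at 12 weeks and 669 to 879 times higher at 16 weeks.

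Ighg1 at 12 weeks was at 91.6 CPM in the lowest, 258 CPM at the median and 795 CPM in the highest MRL/lpr library, against 1.21, 1.49 and 0.157 CPM in MRL/+ libraries. The 16-week values were 26.9, 1086 and 1966 CPM, against 0.965, 1.17 and 1.52 CPM. The lowest MRL/lpr library thus stood well above the highest MRL/+ library at both ages, and the MRL/lpr libraries at 16 weeks spanned 73.2-fold. The log2 fold change was 8.43 ± 1.41 at 12 weeks (adjusted p = 0.00297, edgeR) and 9.76 ± 1.48 at 16 weeks (adjusted p = 0.00145, edgeR).

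Ighg2c at 12 weeks was at 141, 260 and 809 CPM in the lowest, median and highest MRL/lpr library, against 0.572, 2.19 and 0.235 CPM in MRL/+ libraries. The levels at 16 weeks were 17.1, 710 and 1899 CPM, against 0.877, 1.07 and 0.957 CPM. It had the widest spread of the members among MRL/lpr libraries of that age, at 111-fold. The log2 fold change was 8.39 ± 1.45 at 12 weeks (adjusted p = 0.00347, edgeR) and 9.70 ± 1.53 at 16 weeks (adjusted p = 0.00156, edgeR).

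Ighg2b, which shares more 50-base words with Ighg2c than any other member does, averaged 179 ± 145 CPM in MRL/lpr (SD, n = 6) and 0.335 ± 0.282 CPM in MRL/+ libraries (SD, n = 3) at 12 weeks. At 16 weeks it averaged 357 ± 255 CPM in MRL/lpr and 0.495 ± 0.0603 CPM in MRL/+ libraries. Ighg3 averaged 185 ± 149 CPM in MRL/lpr and 0.671 ± 0.438 CPM in MRL/+ libraries at 12 weeks, and 447 ± 414 CPM in MRL/lpr and 0.669 ± 0.136 CPM in MRL/+ libraries at 16 weeks. Both subclasses thus varied widely from one MRL/lpr library to the next, 8.49-fold for Ighg2b and 8.23-fold for Ighg3 at 12 weeks, while staying above every MRL/+ library.

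Igha encodes the alpha chain of IgA, the class that plasma cells of mucosal tissues secrete. At 12 weeks it was at 118.4, 417 and 1120 CPM in the lowest, median and highest MRL/lpr library, against 1.53, 2.66 and 0.941 CPM in MRL/+ libraries. The same 3 values at 16 weeks were 67.7, 591 and 1792 CPM, against 1.14, 2.44 and 1.44 CPM. The groups did not overlap, and the mean was 292 times higher in MRL/lpr at 12 weeks (log2 fold change 8.19 ± 1.28, adjusted p = 0.00224, edgeR) and 419 times higher at 16 weeks (log2 fold change 8.72 ± 1.31, adjusted p = 0.00145, edgeR).

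Igkc, the kappa constant region, was the most abundant member per kb of exon in all 18 libraries. At 12 weeks it was at 950, 1338 and 3389 CPM in the lowest, median and highest MRL/lpr library, against 3.69, 10.7 and 3.45 CPM in MRL/+ libraries. In 16-week libraries they were 168, 4832 and 8004 CPM, against 5.44, 8.58 and 6.46 CPM. The log2 fold change was 8.25 ± 1.20 at 12 weeks (adjusted p = 0.00160, edgeR) and 9.36 ± 1.25 at 16 weeks (adjusted p = 0.000834, edgeR). The 7 heavy chain members together had 0.650 to 1.01 counts per light chain count in MRL/lpr libraries at 12 weeks and 0.688 to 0.986 at 16 weeks, against 1.01 to 1.57 and 0.967 to 1.23 in MRL/+ libraries.

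The lambda regions were far lower. Iglc2 at 12 weeks was at 10.97, 24.3 and 43.0 CPM in the lowest, median and highest MRL/lpr library, against 0.127, 0.157 and 0.0784 CPM in MRL/+ libraries, which is 1 or 2 reads per MRL/+ library. It varied least of the members among MRL/lpr libraries at 16 weeks, 4.31-fold, and had the smallest adjusted p of the 10 in edgeR at both ages (0.000124 and 3.0e-05), and it alone kept its call at 12 weeks without the 4 libraries (adjusted p = 0.0163). Iglc1 had 115 to 1712 counts in MRL/lpr libraries at 12 weeks, against 1 in each MRL/+ library. The ratio of pooled counts per library total was 563, with an exact 95% interval of 192 to 2729 that covers counting error only. At 16 weeks Iglc1 averaged 23.5 ± 11.6 CPM in MRL/lpr and 0.150 ± 0.0616 CPM in MRL/+ libraries, 157 times higher in MRL/lpr (adjusted p = 0.00264, edgeR).

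The table holds other constant region rows beside the 10. Ighe, the epsilon chain of IgE, had 0 to 85 counts in the 12 MRL/lpr libraries and 1 count in the 6 MRL/+ libraries together. Its log2 fold change did not pass the test at 12 weeks (adjusted p = 0.121, edgeR) or at 16 weeks (adjusted p = 0.111, edgeR). Iglc3 had 11 to 410 counts in MRL/lpr libraries and 0 or 1 in each MRL/+ library. Its row overlaps by 93 bases a gene model on the opposite strand, and without a stated strand setting the 2 cannot be told apart. Among the members, Iglc2 overlaps the row of Iglj2 by 38 bases on the same strand, and the effect on Iglc2 counts was not tested. Iglc4 had at most 2 counts in any library.

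**Figure D2:**
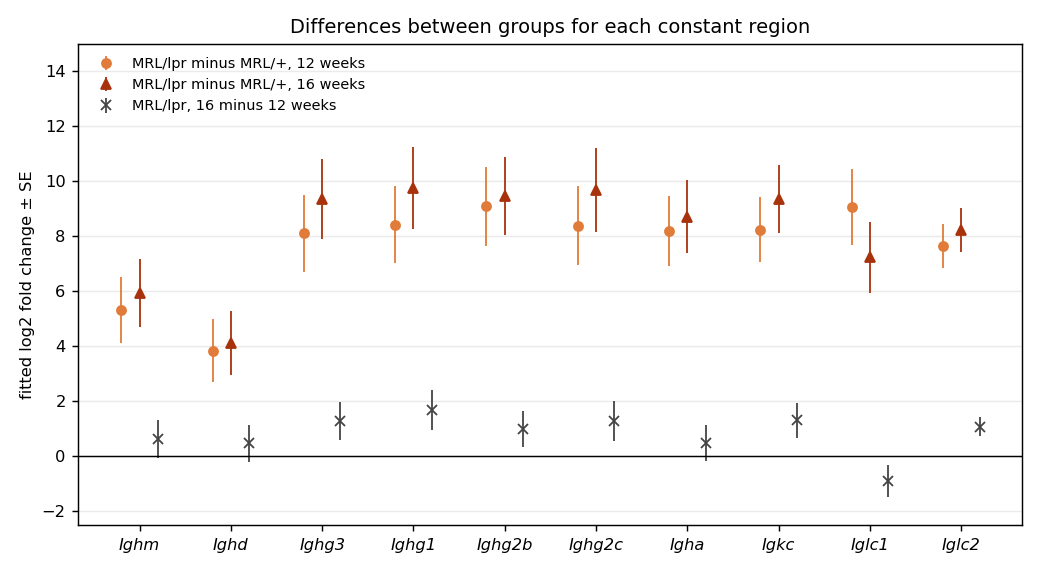
Fitted log2 fold change of each constant region with its standard error, for MRL/lpr minus MRL/+ at 12 and at 16 weeks and for MRL/lpr at 16 minus 12 weeks. The values between the strains run from 3.84 for Ighd to 9.76 for Ighg1, and those between the ages from -0.90 to 1.68.

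As counted in these libraries, the mixture of heavy chain classes differed between the strains as well as its amount. No share test passed at a single age after adjustment, and a test over both ages, added later, passed for Ighm and IgG. Ighm made up 2.02% to 12.1% of the heavy chain constant counts in the 12 MRL/lpr libraries and 24.1% to 53.2% in the 6 MRL/+ libraries, so the strains did not overlap. The 4 IgG genes together made up more of the counts in MRL/lpr on average, at 49.2% to 89.5%, against 22.6% to 51.6% in MRL/+ libraries. Those ranges overlapped. The Igha share did not pass the test in either direction. Shares are percentages of the summed counts of the 7 heavy chain members in a library, a sum of 1994 to 93322 counts in MRL/lpr libraries and of only 62 to 141 counts in MRL/+ libraries.

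At 12 weeks the Ighm share averaged 5.13% ± 3.64 (SD, n = 6) in MRL/lpr and 38.3% ± 14.6 (SD, n = 3) in MRL/+ libraries. The 3 MRL/+ values were 37.5%, 24.1% and 53.2%, with 95% Wilson intervals of 28.5% to 47.5%, 17.8% to 31.8% and 41.0% to 65.1%, which cover counting error only. The highest MRL/lpr value, 12.1% with an interval of 11.7% to 12.5%, lay below all of them. At 16 weeks the Ighm share averaged 5.38% ± 2.80 (SD, n = 6) in MRL/lpr and 32.8% ± 8.67 (SD, n = 3) in MRL/+ libraries. The highest MRL/lpr value was 8.88%, and the MRL/+ values were 42.0%, 31.8% and 24.7%. At each age the two-sided exact permutation test of the difference gave p = 0.0119, the smallest that 84 splits of 6 and 3 libraries allow. Of 27 share tests (9 quantities in 3 comparisons), 5 had an unadjusted p under 0.05 and none passed after adjustment over all of them, the lowest adjusted p being 0.107 (exact permutation test). A single test at the smallest possible p could not pass that adjustment alone. Without the 4 libraries the difference in Ighm share, MRL/lpr minus MRL/+, was -35.3 points at 12 weeks and -22.9 points at 16 weeks.

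A test over both ages, with the strain labels permuted within each age, was added after the results of the single ages were seen. The difference in Ighm share, MRL/lpr minus MRL/+ averaged over the ages, was -30.3 percentage points, with an exact permutation p of 0.000142, the smallest that 7056 splits allow, and an adjusted p of 0.00128 over the 9 quantities. The share of all IgG was higher by 27.6 points in MRL/lpr (adjusted p = 0.00191, same exact permutation test). It averaged 62.9% ± 10.9 in MRL/lpr and 36.6% ± 13.6 in MRL/+ libraries at 12 weeks, and 72.5% ± 14.6 and 43.6% ± 6.91 at 16 weeks. The Ighg2b share was higher by 4.90 points in MRL/lpr (adjusted p = 0.00808) and the Ighd share differed by -2.16 points (adjusted p = 0.0156), a value that rests on 0 to 4 Ighd counts per MRL/+ library. As shares add up to the whole, the IgG and Ighg2b results are not independent of the Ighm result. Within IgG, Ighg2b averaged 16.2% ± 4.71 in MRL/lpr and 14.3% ± 13.1 in MRL/+ libraries at 12 weeks. At 16 weeks it averaged 15.6% ± 7.32 and 14.8% ± 0.703, and these differences within IgG were not tested.

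The other classes did not pass that test. The Ighg1 share was 11.3 points higher in MRL/lpr over both ages (adjusted p = 0.0823 in the exact permutation test), the Ighg2c share 8.31 points higher (adjusted p = 0.0602) and the Ighg3 share 3.08 points higher (adjusted p = 0.212). The Igha share averaged 31.8% ± 12.3 in MRL/lpr and 22.8% ± 3.04 in MRL/+ libraries at 12 weeks, and 22.0% ± 13.5 and 21.3% ± 6.40 at 16 weeks (adjusted p = 0.445 over both ages). Counts per kb of the secreted form's exons, a scale also added after the results were seen, gave an Ighm share of 1.49% to 9.16% in MRL/lpr and 18.8% to 44.6% in MRL/+ libraries, again without overlap, and the same 4 quantities passed the test over both ages.

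**Figure D3:**
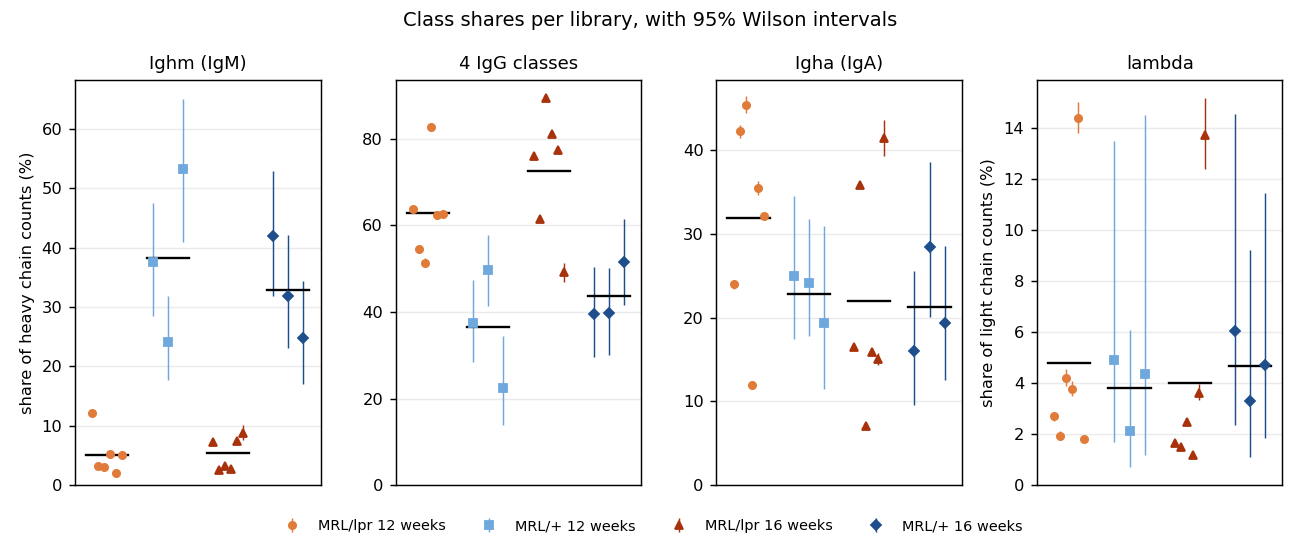
Share of Ighm, of the 4 IgG genes and of Igha among heavy chain constant counts, and of lambda among light chain constant counts, per library with 95% Wilson intervals and group means as lines. Ighm shares of all MRL/lpr libraries lie below those of all MRL/+ libraries, while IgG, Igha and lambda shares overlap between the strains.

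The low counts in MRL/+ libraries set a limit on these shares. Pooled over the 6 MRL/+ libraries, the counts of the 4 gamma genes, Igha and the light chain members were 0.0682% to 0.165% of those in the 12 MRL/lpr libraries. For Ighm they were 0.901%, and for Ighd 2.70%. The Ighm count in MRL/+ libraries was also steady, from 23 to 36, while Igkc ran from 44 to 137 and Ighg2c from 3 to 28. The libraries were barcoded and sequenced together on 2 lanes, per the labels' protocols, and whether some of the few MRL/+ reads were carried over from MRL/lpr libraries was not tested.

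The class that led the mixture differed among the MRL/lpr libraries. On counts, Igha was the largest class in 4 of the 6 MRL/lpr libraries at 12 weeks, Ighg1 in 1 and Ighg2c in 1. At 16 weeks Ighg1 led in 4 and Igha in 2. In the MRL/+ libraries Ighm led in all 6, tied with Igha in replicate 2 at 12 weeks. Per kb of the secreted form's exons the leading classes of the 12 MRL/lpr libraries were the same, but Ighm then led in 3 of the 6 MRL/+ libraries, with Igha leading in 2 and Ighg1 in 1. Per kb of the exon length in the table, which includes the exons of the membrane form for the other heavy chain members but not for Ighg3, Ighg2c led in 5 MRL/lpr libraries and Ighg3 in 4. The order of IgG and IgA within MRL/lpr libraries therefore depends on the length used, and gene-level counts do not separate membrane from secreted antibody.

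**Figure D4:**
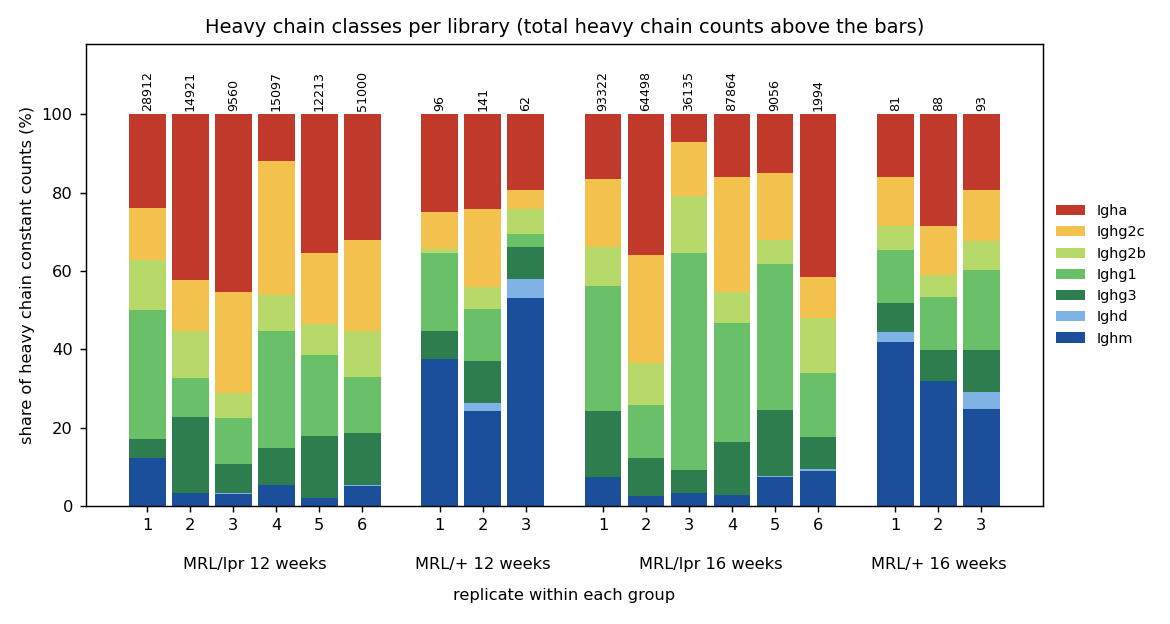
Heavy chain constant counts of each library divided among the 7 members, in percent, with the total heavy chain count above each bar. The dark blue Ighm part is small in every MRL/lpr bar and large in every MRL/+ bar, and the Igha, Ighg1 and Ighg2c parts change from one MRL/lpr bar to the next.

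The libraries of MRL/lpr mice differed widely within an age. At 12 weeks the Igha share ran from 11.9% in replicate 4, where the 4 IgG genes made up 82.7%, to 45.4% in replicate 3. At 16 weeks it ran from 7.05% in replicate 3, where Ighg1 alone made up 55.3%, to 41.4% in replicate 6. These libraries held 1994 or more heavy chain counts each, and the Wilson intervals of the 16-week extremes, 6.79% to 7.32% and 39.3% to 43.6%, are narrow beside the spread. The number of Ighg2c counts per Ighg1 count ran from 0.404 to 2.18 among MRL/lpr libraries at 12 weeks and from 0.247 to 2.08 at 16 weeks, against 0.474 to 1.5 and 0.632 to 0.917 in MRL/+ libraries. Within IgG, Ighg2c averaged 33.8% ± 11.2 of the counts in MRL/lpr and 28.8% ± 9.85 in MRL/+ libraries at 12 weeks, and 27.1% ± 11.1 and 29.2% ± 3.66 at 16 weeks, differences smaller than the spread.

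Lambda, the sum of Iglc1 and Iglc2, made up 4.81% ± 4.81 of light chain constant counts in MRL/lpr and 3.80% ± 1.47 in MRL/+ libraries at 12 weeks, and 4.03% ± 4.84 and 4.69% ± 1.38 at 16 weeks. The strains did not differ beyond this spread (adjusted p = 0.955 over both ages, exact permutation test). A single MRL/lpr library at each age raised the mean, and each by another gene. At 12 weeks replicate 5 had a lambda share of 14.4% (95% Wilson interval 13.8% to 15.04%), with 157 Iglc1 counts per 1000 Igkc counts, where the other 5 libraries had 5.47 to 23.8. At 16 weeks replicate 6 had a lambda share of 13.7% (12.4% to 15.2%), with 144 Iglc2 counts per 1000 Igkc counts, where the other 5 had 8.42 to 23.2. In replicate 5 at 12 weeks Iglc2 was not raised, at 11.6 per 1000 Igkc counts, and in replicate 6 at 16 weeks Iglc1 was at 15.6. Replicate 6 at 16 weeks was also the MRL/lpr library with the fewest constant region counts, 4366 in all. The sequences at the start of the constant exon show where the lambda genes differ. Capitals mark bases in no 15-base word shared with another of the 3, again comparing only words wholly inside the printed bases.
Iglc1, chr16:19062012-19062071: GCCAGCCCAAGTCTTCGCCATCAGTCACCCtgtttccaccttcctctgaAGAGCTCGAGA
Iglc2, chr16:19198794-19198853: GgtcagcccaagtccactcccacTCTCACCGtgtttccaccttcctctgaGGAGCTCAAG
Iglc3, chr16:19065622-19065681: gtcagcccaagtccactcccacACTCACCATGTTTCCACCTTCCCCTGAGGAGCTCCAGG
Iglc2 and Iglc3 were identical at 96.3% of their first 300 exon bases and shared 7.65% and 10.7% of their 50-base words. Iglc1 shared no 50-base word with either, though it shares the shorter stretch in lower case with Iglc2.

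**Figure D5:**
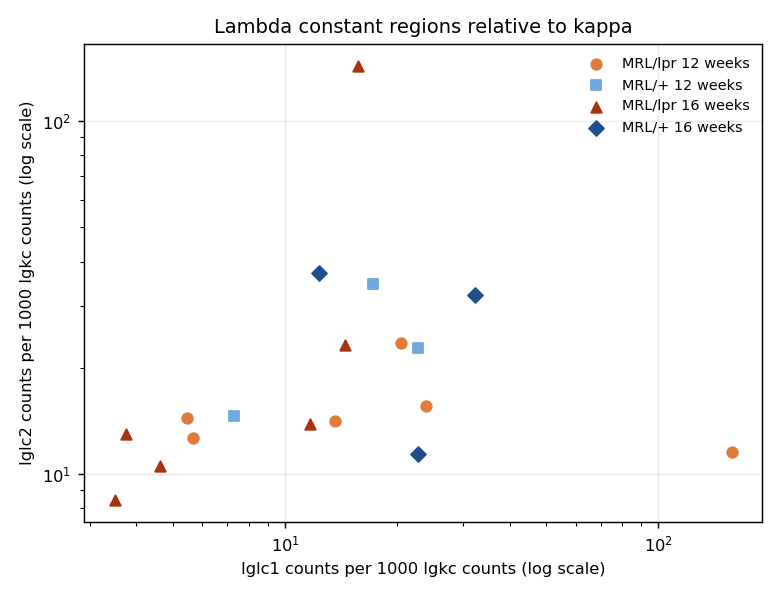
Iglc2 against Iglc1 counts per 1000 Igkc counts in each library, both on log scales. An MRL/lpr library at 12 weeks stands apart to the right at 157 Iglc1 counts and an MRL/lpr library at 16 weeks stands apart at the top at 144 Iglc2 counts.

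Within MRL/lpr mice, the members did not pass the test between 16 and 12 weeks. Mean levels at 16 weeks were higher than at 12 weeks for 9 of the 10, by 1.38-fold for Ighd to 3.20-fold for Ighg1, and lower for Iglc1, at 0.535 of its level at 12 weeks. The adjusted p in edgeR ran from 0.481 for Iglc2 to 0.879 for Ighd, and the largest log2 fold change was 1.68 ± 0.713 for Ighg1. Of all genes, 0.0361% (6 of 16598) were called, 0.0181% higher and 0.0181% lower. At an unadjusted p under 0.05 there were 2 members, Ighg1 and Iglc2, and DESeq2 called none of the 10. The spread among MRL/lpr libraries at 16 weeks, where the summed members ran from 4366 to 219368 counts, was wider than at 12 weeks, where they ran from 24273 to 101512. Single libraries set the direction for 3 genes: the log2 fold change, 16 minus 12 weeks, became 0.04 for Iglc1 without replicate 5 of 12 weeks, -0.03 for Ighm without replicate 1 of 16 weeks and -0.05 for Igha without replicate 2 of 16 weeks. Class shares did not pass between the ages either, the largest differences, 16 minus 12 weeks, being 10.9 points for Ighg1 and -9.88 points for Igha (adjusted p = 0.380 and 0.430, exact permutation test).

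In MRL/+ mice none of the 10 was called between the ages in edgeR, and none of all genes tested was (0%). At an unadjusted p under 0.05 there were 2173 genes and none of the 10 members, and DESeq2 called 10 genes and no member. The strain by age interaction called 0% of genes in edgeR, with 2286 at an unadjusted p under 0.05 and no member among them, and DESeq2 called 0. The larger fold changes between the strains at 16 weeks were therefore not shown to differ from those at 12 weeks.

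The genes of class switching and of the signals that direct it moved in part with the constant regions. Of 19 listed, 17 passed the filter on low counts, and 5 were called higher at 12 weeks and 8 at 16 weeks, with none lower, in edgeR, where 5.01% and 8.49% of all genes tested were called higher. Those at 12 weeks were Batf, Tbx21, Cd40, Tnfsf13b and Il21, and those at 16 weeks Batf, Tbx21, Cd40, Cd40lg, Tnfsf13b, Tgfb1, Ifng and Il10. Genes such as Ifng and Cd40lg, at 0 counts in every MRL/+ library, could not have been called lower. The median log2 fold change was 1.03 at 12 weeks and 0.65 at 16 weeks. Cd40, the B cell receptor for T cell help, averaged 5.98 ± 4.04 CPM in MRL/lpr and 0.509 ± 0.118 CPM in MRL/+ libraries at 12 weeks (log2 fold change 3.53 ± 0.777, adjusted p = 0.0113). Tnfsf13b, which encodes the B cell survival factor BAFF, averaged 4.07 ± 2.25 CPM in MRL/lpr and 0.318 ± 0.0714 CPM in MRL/+ libraries at 16 weeks (log2 fold change 3.63 ± 0.659, adjusted p = 0.00276). Tbx21 encodes T-bet, which in B cells promotes switching to IgG2c in mice. It had 126 counts over the 6 MRL/lpr and 1 over the 3 MRL/+ libraries at 12 weeks, and 177 and 1 at 16 weeks, with adjusted p of 0.0134 and 0.00804 in edgeR. Batf, a transcription factor needed for class switching in mouse B cells, was 15.5 times higher in MRL/lpr at 12 weeks (adjusted p = 0.0258, edgeR) and 11.03 times higher at 16 weeks (adjusted p = 0.0240).

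Il10, which encodes a cytokine that acts on B cell differentiation among many other targets, had 50 counts in MRL/lpr and 1 in MRL/+ libraries at 12 weeks (adjusted p = 0.0574, edgeR). At 16 weeks it had 75 counts in MRL/lpr and 0 in MRL/+ libraries, at least 10.96-fold higher against a floor of 3 counts over the MRL/+ group (adjusted p = 0.0149). Il4, which directs switching to IgG1 in mice, averaged 2.81 ± 0.679 CPM in MRL/lpr and 3.47 ± 0.325 CPM in MRL/+ libraries at 12 weeks, and its adjusted p was 0.450 in edgeR. Il4, and the called genes listed without values, were named after their values were seen. At 12 weeks the calls of Cd40, Tbx21, Tnfsf13b and Batf were each lost without any one of the MRL/+ libraries, with adjusted p of 0.0559 to 0.118 in edgeR. At 16 weeks those of Batf and Il10 were lost in the same way (0.0547 to 0.101) and that of Tbx21 without MRL/+ replicate 3 (0.0575). Without the 4 libraries with transcripts of other tissues, Cd40 and Tnfsf13b kept their calls at 16 weeks and none of the 4 did at 12 weeks.

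Genes for the assembly, secretion and transport of antibody, and for plasma cell identity, were 12 in number. Of the 11 that passed the filter, 6 were called higher at 12 weeks and 7 at 16 weeks, none lower, beside 5.01% and 8.49% of all genes called higher, with median log2 fold changes of 2.72 and 3.47. Tnfrsf17, at 0 to 2 counts in each MRL/+ library, and Irf4, at 1 to 3, were among those not open to a lower call. Jchain, the joining chain that links IgM and IgA into polymers, was at 274, 616 and 708 CPM in the lowest, median and highest MRL/lpr library at 12 weeks, against 1.02, 4.54 and 0.784 CPM in MRL/+ libraries. At 16 weeks it was at 93.2, 891 and 2197 CPM, against 1.67, 3.70 and 1.99 CPM. The strains did not overlap, and the mean was 258 times higher in MRL/lpr at 12 weeks and 466.2 times higher at 16 weeks (adjusted p = 0.000650 and 0.000414, edgeR). Both calls held without any single library and without the 4 libraries.

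Mzb1, a chaperone cofactor of antibody assembly in the endoplasmic reticulum, was 26.4 times higher in MRL/lpr at 12 weeks and 32.0 times higher at 16 weeks (adjusted p = 0.00470 and 0.00243, edgeR). Irf4, a transcription factor needed for switching and for plasma cells, was 61.0 and 116 times higher (adjusted p = 0.00524 and 0.00209). The MRL/+ libraries held only 5 and 4 Irf4 counts in all at 12 and 16 weeks. Derl3, of the pathway that clears misfolded secretory proteins, was 6.72 and 11.3 times higher (adjusted p = 0.0242 and 0.00526). Tnfrsf17, the plasma cell survival receptor BCMA, had 57 counts in MRL/lpr and 1 in MRL/+ libraries at 12 weeks (adjusted p = 0.0135) and 89 and 3 at 16 weeks (adjusted p = 0.0129). Pigr, the receptor that carries polymeric IgA across epithelia, had 4 counts in MRL/lpr and 1 in MRL/+ libraries at 12 weeks and 2 and 0 at 16 weeks, too few to test. At 12 weeks the calls of Tnfrsf17 and Derl3 were lost without any one of the MRL/+ libraries (adjusted p 0.0542 to 0.127, edgeR), and at 16 weeks that of Tnfrsf17 without MRL/+ replicate 1 (0.0639) or 2 (0.0667). Without the 4 libraries Jchain was the one named gene of the list called at 12 weeks, and Jchain, Mzb1 and Irf4 were called at 16 weeks.

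Markers of antibody-making cells moved with the constant regions. The summed level of 7 B cell markers was 19.2 to 115 CPM in MRL/lpr libraries at 12 weeks and 6.23 to 143 CPM at 16 weeks, against 1.21 to 2.04 and 1.14 to 1.75 CPM in MRL/+ libraries. Of the 7, 6 were called higher at each age, where 5.01% and 8.49% of all genes tested were called higher at 12 and 16 weeks. The defining marker Ms4a1, which encodes CD20, was at 0 in all 3 MRL/+ libraries at 12 weeks and at 1 count in each at 16 weeks. Of 7 plasma cell markers, 5 were called higher at each age, beside the same shares of all genes. All 7 are also in the list of antibody assembly and plasma cell identity above, so these calls were already counted there. The sum of the 7 markers was 411 to 964 CPM and 279 to 2602 CPM in MRL/lpr, against 134 to 138 and 193 to 261 CPM in MRL/+ libraries. In MRL/+ libraries Xbp1, which many secretory cells express, made up most of it. The part of cell number in the levels of the constant regions was not tested. Of 5 red blood cell markers, the 3 that passed the filter were not called at either age.

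Over the 12 MRL/lpr libraries, after the mean of each age was subtracted, the log2 levels of the members varied together to different degrees. This describes libraries that share tissue and processing and is no test. Igkc followed Ighg2c most closely (Pearson r = 0.96) and Iglc1 least (r = 0.55). Ighm and Ighd, which one transcript can encode, had r = 0.93, Igha and Ighg1 had r = 0.62, and Iglc1 and Iglc2 only r = 0.13. Among 14526 other genes compared in the same way, those most like Ighm were Sh3tc1 (r = 0.98), Cmtm7 (0.97) and Naip2 (0.97). Those most like Igha were Dennd2d (0.97), Eif4e3 (0.96) and Cenpo (0.94). Those most like Ighg2c were Fut1 (0.97), Dnah8 (0.94) and Pou2af1 (0.94), and those most like Igkc were H2-Eb2 (0.97), Bin2 (0.97) and Pou2af1 (0.97), the last of which encodes a B cell coactivator of octamer-binding factors. Some of these values rest on few reads. Fut1 had 2 to 7 counts per MRL/lpr library at 12 weeks and 0 to 13 at 16 weeks, and H2-Eb2 had 8 to 38 and 0 to 60.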

How the data were processed

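Illumina TruSeq RNA libraries of mouse choroid plexus were sequenced by the authors, who deposited 1 table of raw counts per gene with 1 column per library. Per the submitters' processing notes the tools were STAR 2.5.3a, featureCounts 1.26.0 and DESeq2 1.16.1 with genome build GRCm38. Annotation release, strand setting and treatment of reads with several alignments: not given in the sources used here. Exon positions in the table equalled GENCODE vM21 for the members other than Ighg3 and Ighg2c. The counts were analysed with edgeR 4.0.16 in R 4.3.3: filterByExpr by group (16598 of 50584 genes kept), scaling by the trimmed mean of log ratios (TMM), 1 mean per group over all 18 libraries and robust quasi-likelihood tests of 5 contrasts, with Benjamini-Hochberg adjustment over all genes. Group levels are mean CPM ± SD, and fold changes are ratios of mean CPM unless stated. Where the MRL/+ group was at 0, the fold is a bound against 3 counts over that group. Class shares were compared with two-sided exact permutation tests over all splits, computed in Python 3.11.15. Their Wilson intervals and Benjamini-Hochberg adjustment came from scipy 1.17.1. Log2 CPM for correlations used a prior count of 2. Confidence intervals and floors describe counting error alone, as PCR copies were not told apart by molecular identifiers.

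The 10 members, the gene lists and the tests were chosen with earlier results of these data known. Named were the members, up to 4 genes per list and strain comparison with the smallest p, Jchain and Pigr, and for 4 members the 3 genes most like each, leaving out receptor segments and gene models without a name. Every pair of libraries within a group differed by more than sampling noise (chi-square per gene at least 6.10 in 36 pairs). The fit was tested on simulated counts. The values of 1 listed gene are not reported here. Alternatives were other scalings, no filter, DESeq2 1.42.0, a replicate block, fewer groups in the fit, other denominators and lengths for shares, and leaving out libraries.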

Additional observations from a re-analysis of the deposited data

Results flagged for a closer look

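In 38 groups of 6 libraries examined (levels and shares of the members in MRL/lpr mice), 7 held a library far from the other 5. The rule flags about 1 in 20 groups of independent, normally distributed values. Levels here were often skewed and the groups reuse the same libraries, so the 7 cannot be set against that rate. At 12 weeks replicate 6 stood high for Ighg3, at 468 CPM with the next library at 210 CPM, and for Ighg2c, at 809 CPM with the next at 340 CPM. Replicate 5 at 12 weeks stood high for Iglc1, at 149 CPM with the next at 36.7 CPM, and for the lambda share, at 14.4% with the next at 4.21%. Replicate 1 at 12 weeks had an Ighm share of 12.1%, with the next at 5.28%, and is among the libraries named for transcripts of other tissues. Replicate 6 at 16 weeks had a lambda share of 13.7%, with the next at 3.63%, and an Ighd share of 0.451%, with the next at 0.133%. That Ighd share rests on 9 counts of 1994. The cause of these values was not tested.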

How the results depend on the processing

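Between the strains, the 10 constant regions kept the direction of their fold change under every alternative fitted. The number of members called was 8 to 10 at 12 weeks and 9 or 10 at 16 weeks when any one library was left out. Without the 4 libraries with transcripts of other tissues 1 was called at 12 weeks (adjusted p 0.0649 to 0.394 for the others in edgeR) and 8 at 16 weeks. All genes called at 12 weeks were 1055 (1665 by DESeq2 and 34 without the 4 libraries), and 259, 384 and 321 without MRL/+ replicates 1, 2 and 3, within a range of 259 to 1463 over single libraries. At 16 weeks they were 1849 (503 without the 4 libraries), and 771, 858 and 665 without MRL/+ replicates 1, 2 and 3, within 665 to 2596. Fewer libraries entered those fits. For MRL/lpr at 16 against 12 weeks the 6 genes called became 84 by DESeq2, 0 with only the compared groups, 0 without the 4 libraries, and 1 to 9 without single libraries. DESeq2 called 10 genes between the ages in MRL/+. Replicate numbers were not shown to pair libraries: deviations of same-numbered libraries correlated from -0.62 to 0.45, and 2 of 6 MRL/lpr and 1 of 3 MRL/+ libraries correlated best with their own number. With the replicate number as a block, 1 gene was called between the ages in MRL/lpr, 9 members were called between the strains at each age, and Ighd at 16 weeks was not called (adjusted p = 0.0611, edgeR). It was also not called with no filter (0.0598).

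No share test passed at a single age under any alternative. Between the strains at 1 age, 84 splits allow no p under 0.0119. After adjustment over 27 tests, a pass needed several tests at that p together. Leaving out libraries lowers the number of splits, so a pass was then harder still to reach. The lack of a pass therefore says little about the differences in share. Without the 4 libraries, the 4 MRL/lpr and 2 MRL/+ libraries at 12 weeks give too few splits for a p under 0.05. Differences in share that changed direction were small. On log2 odds lambda at 12 weeks became -0.22 and Igha at 16 weeks -0.15. Igha at 16 weeks became -1.92 points without the 4 libraries and -0.808 points per kb of the secreted form. Without the 4 libraries lambda at 16 weeks became 0.0297 points, and Ighg3 between the ages -2.17 points. Without single libraries, lambda at 12 weeks ran from -0.913 to 1.61 points, Igha at 16 weeks from -3.21 to 4.26 and lambda at 16 weeks from -2.60 to 0.0297. Between the ages in MRL/lpr, Ighm ran from -0.448 to 1.65 points, Ighd from -0.0208 to 0.0598, Ighg3 from -1.24 to 1.68, Ighg2b from -0.181 to 1.52, Ighg2c from -4.05 to 0.556 and lambda from -2.72 to 1.14. Log2 fold changes between the ages ran from -0.032 to 1.31 for Ighm, -0.051 to 0.95 for Igha and -1.11 to 0.037 for Iglc1. With 62 to 141 heavy chain counts per MRL/+ library, a class at 0 counts could be up to 2.13% to 4.84% of the mixture, which limits statements on Ighd in MRL/+ libraries.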
